A study of Mus musculus with 12 samples.

Results

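The core circadian clock genes followed here were *Arntl* (which encodes BMAL1), *Clock*, *Npas2*, *Rora*, *Per1*, *Per2*, *Per3*, *Cry1* and *Cry2*. They were taken by symbol from the deposited table of read counts, in which each symbol stood on a single row, and they made up 9 of the 55335 genes listed. All 9 passed the filter on low counts in both tissues. The study bred mice with a loxP-flanked allele of *Tshr*, the receptor of thyroid-stimulating hormone (TSH), to a Lyz2-Cre line, in which the *Lyz2* promoter drives Cre in myeloid cells (macrophages, monocytes and neutrophils). The floxed controls are called Tshr f/f, and their littermates of the genotype Tshr f/f,Lyz2-Cre are called Tshr MKO. Bone marrow-derived macrophages (BMDMs) came from males given as 6 weeks old in the labels (the methods give a range of ages that begins there), were differentiated for 7 days with 10 ng/mL M-CSF and received 1 ng/mL TSH for 24 h, so no library was without TSH. Livers came from males that were fed a high-fat diet (HFD) for 9 weeks from 6 weeks of age, fasted for 8 h and killed 5 min after 1.5 U/kg insulin. Each tissue had n = 3 libraries of each genotype, all the animals carried the floxed allele, and no library came from mice with Cre but no floxed allele. The methods give the BMDMs the same n, from littermate mice, without saying outright that each culture came from its own mouse, so p-values measure the spread between these libraries. The clock time at which cells and livers were collected was not given in the sources used here.

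The mammalian clock is a feedback loop of transcription. BMAL1 pairs with CLOCK or its paralog NPAS2 and activates genes through E-boxes, among them the *Per* and *Cry* genes, whose proteins return to the nucleus and repress the pair. RORα, the product of *Rora*, activates *Arntl* through ROR elements, which the repressors REV-ERBα and REV-ERBβ (*Nr1d1* and *Nr1d2*) also bind, while the PAR bZIP factors (*Dbp*, *Tef* and *Hlf*) act on D-boxes. In liver the transcripts of *Arntl* and of the *Per* genes oscillate in opposite phases over the day, and feeding shifts the liver clock. Macrophages hold a clock of their own that gates the secretion of cytokines.

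Promoters are shown for the 4 members on which the differences below turn and whose windows held a motif. RefSeq (GRCm38.p6) gave 12 start sites for 8 of the 9 members. The 250 bases before each start were searched on both strands for CACGTG (E-box), CACGTT (E′-box), TTANGTAA (D-box), TNGGTCA and TGACGTCA (cAMP response element). N stands for any base, so TNGGTCA is a loose form of the core of a ROR element. Capitals mark the matches, each window runs 5′ to 3′ on the strand of its gene and ends at the base before the start, and no matches overlapped. The windows are *Arntl* (chr7:113207215-113207464, plus strand), *Per3* (chr4:151044666-151044915, minus strand), *Cry1* (chr10:85185055-85185304, minus strand) and *Cry2* (chr2:92434070-92434319, minus strand).
Arntl: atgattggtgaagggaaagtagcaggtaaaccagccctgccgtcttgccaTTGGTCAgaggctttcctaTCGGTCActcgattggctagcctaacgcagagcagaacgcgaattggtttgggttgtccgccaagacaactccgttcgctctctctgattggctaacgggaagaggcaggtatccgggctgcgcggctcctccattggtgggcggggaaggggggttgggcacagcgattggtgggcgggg
Per3: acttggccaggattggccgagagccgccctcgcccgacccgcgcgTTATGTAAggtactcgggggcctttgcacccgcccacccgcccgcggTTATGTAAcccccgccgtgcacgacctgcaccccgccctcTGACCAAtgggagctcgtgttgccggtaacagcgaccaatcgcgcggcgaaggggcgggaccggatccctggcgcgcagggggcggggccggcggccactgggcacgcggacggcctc
Cry1: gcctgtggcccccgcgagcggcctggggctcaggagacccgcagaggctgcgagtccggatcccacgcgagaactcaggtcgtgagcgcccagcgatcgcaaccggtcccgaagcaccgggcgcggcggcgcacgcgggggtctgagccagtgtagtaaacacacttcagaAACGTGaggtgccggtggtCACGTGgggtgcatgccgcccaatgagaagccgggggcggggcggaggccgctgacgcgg
Cry2: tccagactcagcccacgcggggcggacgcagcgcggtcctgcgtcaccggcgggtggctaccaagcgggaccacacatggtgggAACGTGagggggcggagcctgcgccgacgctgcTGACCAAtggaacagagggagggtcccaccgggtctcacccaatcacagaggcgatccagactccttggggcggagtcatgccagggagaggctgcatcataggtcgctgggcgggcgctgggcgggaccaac

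The *Arntl* window held 2 matches to TNGGTCA on the strand of the gene, TTGGTCA from 200 to 194 bases before the start and TCGGTCA from 181 to 175. The *Per3* window held 2 D-boxes, at 205 to 198 and 158 to 151 bases, and a match to TNGGTCA on the other strand at 118 to 112. The *Cry1* window held an E-box at 60 to 55 bases and an E′-box on the other strand at 79 to 74. The *Cry2* window held an E′-box at 166 to 161 bases and a match to TNGGTCA that ends 127 bases before the start, both on the other strand. In each of these matches to TNGGTCA the base at N was T or C, and in none was it A or G. A window of *Per1* held an E-box at 166 to 161 bases, and those of *Clock*, *Npas2* and *Rora* held none of these letters. *Per2* had no entry. Of 32851 promoters of the same length, 6.02% held the E-box, 3.85% the E′-box, 2.06% the D-box, 9.19% TNGGTCA and 1.55% the cAMP response element. A match is a description of the letters and not a site of binding.

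The 12 libraries held 28962878 to 40954211 counts. In a library 3 counts corresponded to 0.0733 to 0.104 CPM (counts scaled to the size of the library), a floor that covers counting error only. This floor is by library size alone, without the scaling factors used for the values below. BMDM Tshr f/f replicate 3 stood apart, with a trimmed-mean (TMM) scaling factor of 0.738 against 0.993 to 1.11 in the other BMDMs and 0.891 to 1.05 in livers. *Tshr* had 0, 0 and 2 counts in BMDMs from Tshr f/f mice, 0, 0 and 5 in BMDMs from Tshr MKO mice and 0 in each liver, too few to check the genotype. For livers there is a further limit, since the study prints counts of some genes in these livers and, where compared (*Il6ra*, *Il1r1* and *Il12rb2*), they stand under the opposite genotype heading. The livers are therefore called "labelled" Tshr f/f or Tshr MKO, and every direction in liver is that of the labels and would turn with the other naming. The comparisons of livers with BMDMs within a genotype, and the test of a genotype difference between tissues, also rest on these labels. Their sizes, and not only their signs, would change with the other naming. Which heading is right was not tested, and the other assays that the study ran on livers were not used here. In BMDMs the summed macrophage markers (6 of 6 found) were at 14459 to 16065 CPM in Tshr f/f and 19799.8 to 29047 in Tshr MKO. *Lyz2*, whose promoter drives Cre in the Tshr MKO mice, was the only 1 of the 6 at an unadjusted p under 0.05. It was higher (log2 fold change 0.95, unadjusted p = 0.00813 in edgeR). Of the 6 hepatocyte markers, *Alb*, *Ttr*, *Serpina1a*, *Cyp2e1* and *Fgb* were at 0 in the 6 BMDM libraries and *Apoa1* had at most 3 counts. *Clec4f* of the Kupffer cell list and *Lrat* of the stellate cell list were also at 0 in BMDMs. In the same cells *Timd4* (−2.70) and *Marco* (−2.17) of the Kupffer cell list and *S100a8* (−2.37) and *Camp* (−3.23) of the neutrophil list were lower in Tshr MKO at an unadjusted p under 0.05, and *Mpo* was higher (2.01). The neutrophil sum was 7.31 to 48.8 CPM in Tshr f/f and 4.72 to 10.2 in Tshr MKO, and the part of these cells in the differences between genotypes was not tested. In livers the hepatocyte sum was 79429 to 101864 CPM under the Tshr f/f label and 94713 to 98107 under the Tshr MKO label. The summed macrophage, Kupffer cell, neutrophil, lymphocyte, stromal and endothelial markers also overlapped between the labelled liver groups, with *Ttr* higher (0.37) and *Ngp* lower (−2.24) at an unadjusted p under 0.05.

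The first comparison was of genotypes in BMDMs under TSH. *Cry1*, which encodes a repressor of CLOCK–BMAL1, was the member that differed most from its replicate spread, and it was lower in Tshr MKO. *Per3*, a *Per* paralog, was higher in each Tshr MKO library than in each Tshr f/f library. The other 7 members overlapped between genotypes. The 2 of 9 that did not compare with 28.7% of all genes tested in BMDMs, in either direction. No member reached an adjusted p under 0.05 in edgeR (quasi-likelihood test, Benjamini-Hochberg over 15372 genes), where 0 genes were called, 1189 were higher (7.73%) and 1567 lower (10.2%) at an unadjusted p under 0.05, and DESeq2 called 1223. At that unadjusted limit 1 of the 9 members was lower and 0 were higher, against a background of 17.9% of genes in either direction.

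*Cry1* (ENSMUSG00000020038, chromosome 10, 85131700–85185064, minus strand, GRCm38) gave 16.2, 17.2 and 26.9 CPM in BMDMs of Tshr f/f mice and 8.77, 7.17 and 9.86 CPM in Tshr MKO BMDMs, scaled by TMM within the tissue. The groups did not overlap, as in 14% of all genes tested in that direction and 28.7% in either. The Tshr MKO level was 2.33-fold lower (95% interval 1.54 to 3.54), a log2 fold change of −1.22 (SE 0.25, unadjusted p = 0.00227, adjusted p = 0.218 in edgeR). The adjusted p passed 0.05 when all 12 libraries were fitted together (0.0413) and in DESeq2 (0.00198), and ranged from 0.00198 to 0.587 over the alternatives. Tshr f/f replicate 3, the library with the low scaling factor, was the highest, and without it the log2 fold change was −0.96 (unadjusted p = 0.00135, adjusted p = 0.106). *Cry2*, the paralog of *Cry1*, gave 6.30, 10.1 and 11.4 CPM in Tshr f/f and 10.8, 8.16 and 8.53 CPM in Tshr MKO. Its log2 fold change was −0.02 (95% interval −0.66 to 0.62), and it kept that sign in only 5 of 14 alternatives.

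Among the *Per* genes, *Per3* (ENSMUSG00000028957, chromosome 4, 151003652–151044665, minus strand) gave 4.24, 5.47 and 1.54 CPM in Tshr f/f and 8.33, 6.11 and 8.07 CPM in Tshr MKO. Its groups did not overlap, as in 14.8% of genes in that direction, but its log2 fold change of 0.99 (SE 0.45) had an unadjusted p of 0.0684 and an adjusted p of 0.304. The lowest value was again that of Tshr f/f replicate 3, without which the log2 fold change was 0.63 (unadjusted p = 0.0326). *Per2* gave 1.96, 4.72 and 2.19 CPM in Tshr f/f and 5.04, 3.65 and 3.28 CPM in Tshr MKO. The groups overlapped (log2 fold change 0.43, 95% interval −0.55 to 1.41), and without Tshr f/f replicate 2 the value was 0.94 (unadjusted p = 0.024). *Per1*, which is also an early target of cAMP and glucocorticoid signals, gave 26.4, 45.5 and 38.5 CPM in Tshr f/f and 32.5, 21.2 and 62.8 CPM in Tshr MKO. Its 3 Tshr MKO libraries spanned more than those of Tshr f/f, and the log2 fold change was 0.08 (95% interval −0.92 to 1.08), with the other sign under the replicate block and without Tshr f/f replicate 1 or Tshr MKO replicate 3.

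The activators gave small differences with overlapping groups. *Arntl* gave 11.3, 15.7 and 12.7 CPM in BMDMs of Tshr f/f mice and 13.8, 12.7 and 15.2 CPM in those of Tshr MKO mice, with a log2 fold change of 0.07 (95% interval −0.35 to 0.49). *Clock* gave 81.5, 73.9 and 111 CPM in Tshr f/f and 69.8, 69.9 and 78.9 CPM in Tshr MKO (log2 fold change −0.28, 95% interval −0.72 to 0.15). *Rora* gave 19.6, 24.4 and 43.8 CPM in Tshr f/f and 22.3, 23.4 and 24.4 CPM in Tshr MKO (−0.32, 95% interval −1.04 to 0.40). Tshr f/f replicate 3 was the highest library for both *Clock* and *Rora*, and without it the sign of *Rora* turned. *Npas2* had 24, 32 and 0 counts in Tshr f/f and 19, 22 and 35 in Tshr MKO. The library at 0 was again Tshr f/f replicate 3, in which 3 counts would be 0.085 CPM by library size alone, without the TMM factor. The intervals of these genes leave room for changes in either direction, so equal levels were not shown.

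**Figure D1:**
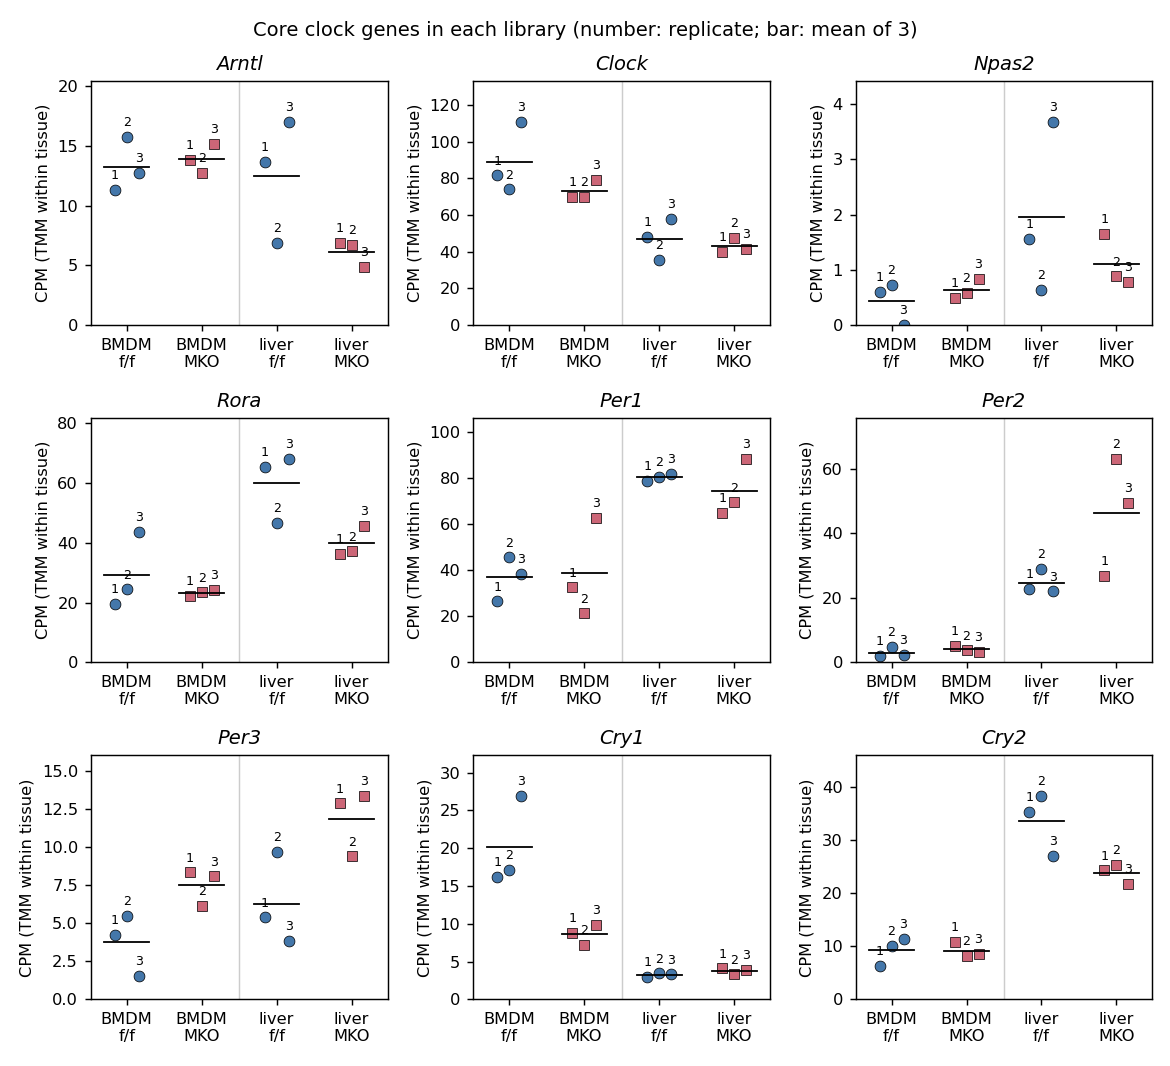
CPM of each clock gene (y axis from 0, TMM scaling within a tissue) in each of the 12 libraries, with circles for Tshr f/f, squares for Tshr MKO, the replicate number above each point and a bar at the mean of 3. Values are to be compared within a tissue. *Cry1* and *Per3* separate the genotypes in BMDMs, and *Cry2* and *Rora* separate the labels in livers. Of all genes tested, 28.7% did so in BMDMs and 17.3% in livers, in either direction.

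In livers the same comparison gave more members past the unadjusted limit, with none at an adjusted p under 0.05. *Per2* and *Per3* were higher in livers labelled Tshr MKO, and *Arntl*, *Cry2* and *Rora* were lower. This was 5 of the 9 members at an unadjusted p under 0.05 (2 higher and 3 lower), where 5.27% of the 15062 genes tested were higher and 5.18% lower (10.5% in either direction). The members were chosen with earlier results of these data known, so this count is a description and not a test of the set. edgeR called 0 genes at an adjusted p under 0.05 (lowest 0.0634) and DESeq2 269, none of them a member. Whole liver was sequenced, so fewer cells of a type and less RNA per cell cannot be told apart. Leaving out a library moved the count of members from 2 (*Cry2* and *Rora*, without Tshr f/f replicate 3) to 6 (without Tshr f/f replicate 2, with *Npas2* added). The count was 3 without Tshr f/f replicate 1 (*Arntl*, *Cry2* and *Rora*) or without Tshr MKO replicate 3. In the latter fit the 3 were *Cry2*, *Rora* and *Per1*, all lower, and *Arntl* was not among them.

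*Arntl* (ENSMUSG00000055116, chromosome 7, 113207465–113314126, plus strand) gave 13.6, 6.86 and 17.0 CPM in the livers labelled Tshr f/f and 6.87, 6.69 and 4.85 CPM in those labelled Tshr MKO. The groups overlapped through Tshr f/f replicate 2, which stood at the level of the Tshr MKO livers. The log2 fold change was −1.02 (SE 0.34, 95% interval −1.82 to −0.22, unadjusted p = 0.0192, adjusted p = 0.395 in edgeR). It was −1.32 without that liver (adjusted p = 0.0937) and −0.74 without Tshr f/f replicate 3 (unadjusted p = 0.0702). Without Tshr MKO replicate 3 it was −0.88, with an unadjusted p also above 0.05. *Rora* (ENSMUSG00000032238, chromosome 9, 68653786–69388246, plus strand), an activator of *Arntl*, gave 65.3, 46.7 and 68.1 CPM in the livers labelled Tshr f/f and 36.4, 37.1 and 45.8 CPM in those labelled Tshr MKO. All the Tshr MKO livers lay below all the Tshr f/f livers, with a log2 fold change of −0.59 (SE 0.17, unadjusted p = 0.00945, adjusted p = 0.347). The groups of *Rora* and *Cry2*, 2 of the 9 members, did not overlap, both lower, where 7.74% of genes did so lower, 9.6% higher and 17.3% in either direction. *Rora* and *Cry2* were at an unadjusted p under 0.05 in each of the alternatives run, the replicate block and each left-out library included.

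*Clock* and *Npas2*, the partners of BMAL1, overlapped between the labels. *Clock* gave 47.9, 35.6 and 57.9 CPM under Tshr f/f and 39.9, 47.7 and 41.5 CPM under Tshr MKO (log2 fold change −0.13, 95% interval −0.56 to 0.30). *Npas2* gave 1.56, 0.634 and 3.68 CPM under Tshr f/f and 1.65, 0.881 and 0.779 CPM under Tshr MKO (−0.82, 95% interval −2.36 to 0.73). Its highest liver was Tshr f/f replicate 3 and its lowest Tshr f/f replicate 2, the same 2 livers that held the highest value and the lowest value of *Arntl* within the Tshr f/f label. Without Tshr f/f replicate 3 the difference of *Npas2* was 0.01.

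*Per2* (ENSMUSG00000055866, chromosome 1, 91415982–91459324, minus strand) gave 22.8, 28.9 and 22.0 CPM in the livers labelled Tshr f/f and 26.8, 63.1 and 49.4 CPM in those labelled Tshr MKO. Tshr MKO replicates 2 and 3 were above every Tshr f/f liver and replicate 1 was not, and the log2 fold change was 0.92 (SE 0.30, unadjusted p = 0.0208, adjusted p = 0.403). In the fits with a library left out, *Per2* was no longer at an unadjusted p under 0.05 without Tshr f/f replicate 1 or 3 or Tshr MKO replicate 2 or 3, with the lowest log2 fold change at 0.62. *Per3* gave 5.38, 9.68 and 3.82 CPM under Tshr f/f and 12.9, 9.38 and 13.3 CPM under Tshr MKO. Tshr f/f replicate 2 was again within the other group, and the log2 fold change of 0.91 (SE 0.35, unadjusted p = 0.0342, adjusted p = 0.437) became 1.36 without it (adjusted p = 0.121). It was 0.64 without Tshr f/f replicate 3 (unadjusted p = 0.0835), and the unadjusted p was also above 0.05 without Tshr f/f replicate 1 or Tshr MKO replicate 1 or 3, under the replicate block and with all 12 libraries in the fit. *Per1* gave 78.7, 80.6 and 81.6 CPM under Tshr f/f and 64.8, 69.4 and 88.3 CPM under Tshr MKO. The groups of *Per1* overlapped, with a log2 fold change of −0.12 (95% interval −0.42 to 0.18). Without Tshr MKO replicate 3, its highest liver, it was −0.26 (unadjusted p = 0.0374 in edgeR).

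*Cry2* (ENSMUSG00000068742, chromosome 2, 92403646–92434043, minus strand) gave 35.2, 38.3 and 27.1 CPM in the livers labelled Tshr f/f and 24.3, 25.3 and 21.7 CPM in those labelled Tshr MKO. The groups did not overlap, and the difference was 1.41-fold (95% interval 1.11 to 1.79; log2 fold change −0.50, SE 0.14, unadjusted p = 0.0107, adjusted p = 0.347). *Cry1* gave 2.94, 3.45 and 3.32 CPM under Tshr f/f and 4.11, 3.31 and 3.93 CPM under Tshr MKO. Its difference in liver was 0.22 (95% interval −0.25 to 0.70), and the liver with the lowest *Cry1* value was one labelled Tshr f/f.

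**Figure D2:**
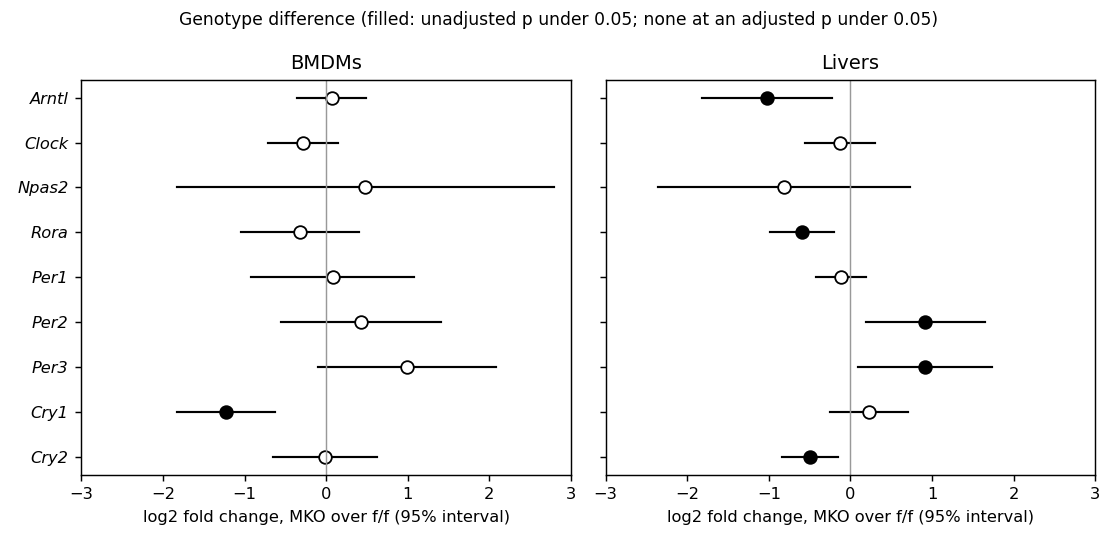
Log2 fold change of each clock gene (x axis, Tshr MKO over Tshr f/f, with 95% intervals) in BMDMs on the left and livers on the right, n = 3 against 3. Filled points had an unadjusted p under 0.05 (*Cry1* in BMDMs; *Arntl*, *Rora*, *Per2*, *Per3* and *Cry2* in livers), and none had an adjusted p under 0.05.

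The members were then set side by side within each of the 6 livers. Relative to the mean of the 6 livers on the log2 scale, *Arntl* was at 0.70 and 1.02 in Tshr f/f replicates 1 and 3, in which *Per3* was at −0.62 and −1.12. In Tshr f/f replicate 2 these values were −0.29 and 0.23, close to the −0.33 and 0.18 of Tshr MKO replicate 2. *Rora* was highest in Tshr f/f replicates 1 and 3 (0.43 and 0.49) and *Per2* was lowest there (−0.52 and −0.57). *Per2* had the same sign as *Arntl* in Tshr f/f replicate 2 (−0.18) and Tshr MKO replicate 1 (−0.28). *Per1* had the sign of *Arntl* in Tshr f/f replicates 1 and 3 (0.04 and 0.09). It did so too in Tshr MKO replicates 1 and 2 (−0.25 and −0.15). This is a description over 6 libraries, which share the scaling of a library. The IDs of the livers begin with the letters A or B, and with the letter as a covariate the same 5 members had an unadjusted p under 0.05.

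**Figure D3:**
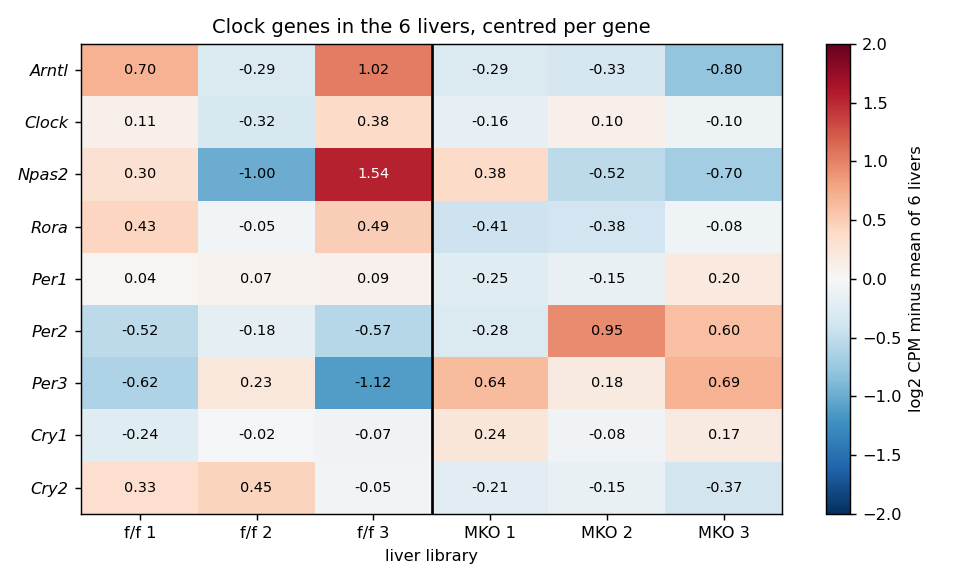
Log2 CPM of each clock gene in each liver minus its mean over the 6 livers (colour and printed value), with the livers labelled Tshr f/f left of the line and those labelled Tshr MKO right of it. *Arntl* and *Per3* have opposite signs in every liver, and Tshr f/f replicate 2 has the signs of the Tshr MKO livers for both. *Per1* shares the sign of *Arntl* in Tshr f/f replicates 1 and 3 and Tshr MKO replicates 1 and 2. *Per2* shares it in Tshr f/f replicate 2 and Tshr MKO replicate 1.

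A ratio within a library needs no scaling between libraries, so the counts of *Arntl* were set against the sum of *Per1*, *Per2* and *Per3*. *Per1* had the most counts of these genes in each library, so it weighed most in the sum. In BMDM Tshr f/f replicate 1 it had 1052 counts, against 78 for *Per2* and 169 for *Per3*. In BMDMs the log2 ratio was −1.53, −1.82 and −1.73 in Tshr f/f and −1.73, −1.28 and −2.29 in Tshr MKO. The means were −1.69 ± 0.15 and −1.77 ± 0.50 (SD, n = 3), and the difference of −0.07 was within the spread (exact permutation test, two-sided, p = 0.8). In livers it was −2.97, −4.11 and −2.66 under Tshr f/f and −3.92, −4.40 and −4.96 under Tshr MKO. The means were −3.25 ± 0.77 and −4.43 ± 0.52, a difference of −1.18 (exact permutation test, two-sided, p = 0.2, where 3 against 3 cannot go below 0.1). Tshr f/f replicate 2 fell below Tshr MKO replicate 1, and without it the difference was −1.61. Leaving out Tshr f/f replicate 3 gave −0.89 instead, and leaving out Tshr MKO replicate 3 gave −0.92 (exact p = 0.4 in both), and it kept its sign whichever liver was left out. With *Per3* alone in the denominator the difference was −1.09 in BMDMs, where the groups did not overlap (exact p = 0.1), and −1.95 in livers (exact p = 0.2).

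**Figure D4:**
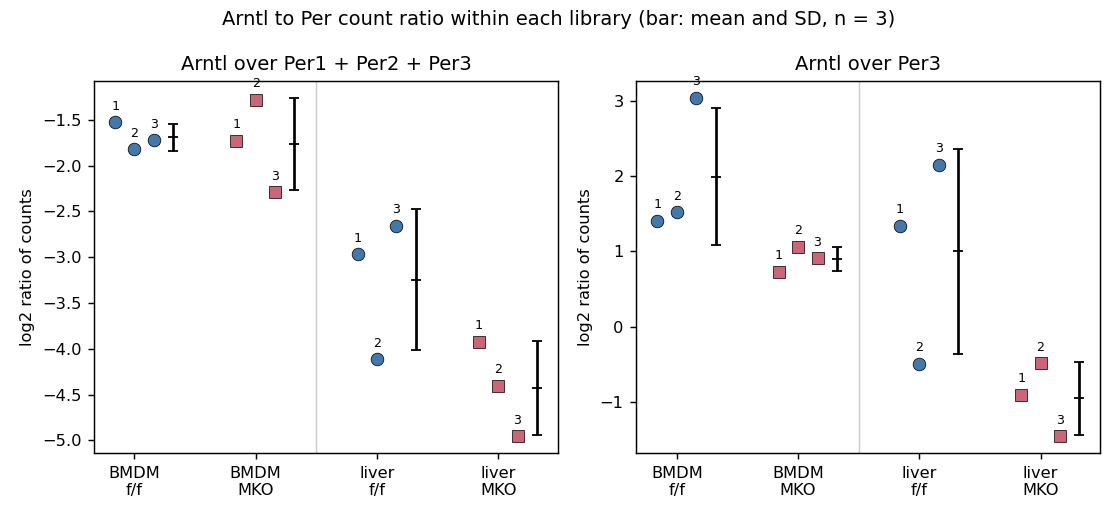
Log2 ratio of *Arntl* counts to the summed *Per* counts (left) and to *Per3* counts (right) in each library, with the replicate number at each point and the mean and SD of 3 beside it. On the left the BMDM groups overlap around −1.7, and in livers Tshr f/f replicate 2 (−4.11) lies among those labelled Tshr MKO.

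Whether the genotype difference itself differed between the tissues was tested as an interaction over the 12 libraries, where 1 of 17246 genes was called (0.0058%), no member. *Cry1* had the lowest p of the members, and its log2 fold change in liver minus that in BMDMs was 1.45 (SE 0.31, unadjusted p = 0.000836, adjusted p = 0.139 in edgeR). The adjusted p was 0.00394 in DESeq2, 0.0472 without BMDM Tshr f/f replicate 2, and ranged from 0.00394 to 0.334 over the alternatives. For *Arntl* it was −1.09 (SE 0.41, unadjusted p = 0.0236, adjusted p = 0.282). The unadjusted p of *Cry2* was 0.151 and those of the other 6 members were higher. At an unadjusted p under 0.05 the 2 members compare with 14.5% of all genes. For *Per3* the difference between the tissues was not detectable (−0.08, 95% interval −1.41 to 1.25). *Per3* was higher in Tshr MKO by 0.99 in BMDMs and, under the labels, by 0.91 in livers. With the other naming of the livers the interaction values of the members would differ in size.

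Livers and BMDMs were also compared, with all 12 libraries scaled together. Tissue, culture, diet, TSH and insulin differ between them and cannot be told apart. The genotype of the livers is that of their labels. In Tshr f/f libraries *Per2* was 15.2-fold higher in liver (95% interval 8.15 to 28.5; log2 fold change 3.93, adjusted p = 1.00e-05 in edgeR). *Cry2* was 6.68-fold higher (log2 fold change 2.74), *Per1* 4.03-fold, *Rora* 3.79-fold and *Per3* 3.08-fold. *Cry1* went the other way, 3.36-fold lower in liver (95% interval 2.37 to 4.76; log2 fold change −1.75, adjusted p = 4.96e-05). *Npas2* was higher by 2.96 (adjusted p = 0.0146) with a wide interval, 0.92 to 5.00, and the call was lost without liver Tshr f/f replicate 3 (2.11, adjusted p = 0.075). *Arntl* was higher by 0.80 (adjusted p = 0.0304), a call lost in several alternatives, and the difference of *Clock* was −0.03 (95% interval −0.47 to 0.41). Of the 9 members 8 were called, where 69.3% of all genes were (36.6% higher and 32.7% lower in liver).

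In Tshr MKO libraries 5 of the 9 members were called, all higher in liver, with a background of 68.5% (36.8% higher and 31.8% lower). *Per2* was higher in liver by 4.43 on the log2 scale, *Cry2* by 2.26, *Per1* by 1.81, *Rora* by 1.65 and *Per3* by 1.54. *Cry1*, at 5.26 to 7.35 CPM in Tshr MKO BMDMs and 4.59 to 5.65 in livers labelled Tshr MKO, gave −0.30 (95% interval −0.79 to 0.19), where the mean of the Tshr f/f BMDMs was 14.8 ± 4.40 CPM (SD, n = 3). *Arntl* was at −0.29 (adjusted p = 0.396), *Npas2* at 1.66 (adjusted p = 0.118) and *Clock* at 0.13 (adjusted p = 0.585). Scaling mattered here: by library size alone the median of all genes moved from 0.03 to −0.79 in Tshr f/f, with 3895 genes higher and 8573 lower in liver against 6310 and 5634 with TMM. Under it *Arntl* was at −0.045 and *Clock* at −0.81 (adjusted p = 0.00131) in Tshr f/f, and the calls of *Npas2* (2.03, adjusted p = 0.0777) and *Per3* (0.72, adjusted p = 0.224) were lost. In Tshr MKO it put *Cry1* at −1.26 (adjusted p = 0.000168) and *Arntl* at −1.25 (adjusted p = 0.0056), both then called lower in liver. *Cry1* was also called lower there with upper-quartile factors (−0.51, adjusted p = 0.0466). *Clock* turned its sign in Tshr MKO under both scalings and was called lower with library size alone (−0.84, adjusted p = 0.001), and *Per3* was no longer called with library size alone (0.58, adjusted p = 0.32). *Per2*, *Per1*, *Cry2* and *Rora* were called higher in liver in both genotypes under library size alone.

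Per kilobase of exon, which allows genes to be set against each other, *Per1* led in both tissues. In the 6 BMDMs the means (CPM per kb, 12 libraries scaled together) were 4.95 for *Per1*, 4.33 for *Clock*, 3.16 for *Cry1*, 1.48 for *Rora*, 1.33 for *Arntl* and 1.07 for *Cry2*. *Per2* (0.436), *Per3* (0.431) and *Npas2* (0.0835) followed. The only neighbours in this order whose ranges over the libraries did not overlap were *Cry2* and *Per2*. In the 6 livers the order by the mean over both labels was *Per1* (18.6), *Per2* (8.25), *Cry2* (6.15), *Rora* (5.18), *Clock* (4.46), *Arntl* (1.68), *Cry1* (1.43), *Per3* (1.28) and *Npas2* (0.434). Here *Per1* was above *Per2* in range, and *Clock* above *Arntl*, while the other neighbours overlapped. This order pools the labels, and the place of *Per2* depended on them. In livers labelled Tshr f/f *Per2* was the fourth by its mean (5.67 ± 0.907 CPM per kb, SD, n = 3), after *Cry2* (7.18 ± 1.24) and *Rora* (6.21 ± 1.18), whose ranges it overlapped. In livers labelled Tshr MKO it followed *Per1*, at 10.8 ± 4.34 against 5.13 ± 0.511 for *Cry2*, and those ranges did not overlap. *Arntl* was above *Cry1* and *Per3* by mean under the Tshr f/f label (2.25 ± 0.928) and below both under the Tshr MKO label (1.12 ± 0.224). In BMDMs the order within a genotype differed from the pooled one only where neighbours overlapped, with *Arntl* above *Rora* and *Per3* above *Per2* in Tshr MKO.

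The clock output and accessory loop genes, the loop that the members drive, had the largest list median in BMDMs. This list and those below were chosen with earlier results of these data known, so their counts are descriptions and not tests. Of 14 listed, 13 were tested in BMDMs, and 6 were higher and 1 lower in Tshr MKO at an unadjusted p under 0.05, where 7.73% of all genes were higher and 10.2% lower, with a median log2 fold change of 0.77 against 0.01 over all genes tested. *Nr1d1*, which encodes REV-ERBα, gave 2.56, 2.61 and 2.00 CPM in Tshr f/f and 11.7, 8.86 and 8.27 CPM in Tshr MKO. Every Tshr MKO library was above every Tshr f/f library, with a log2 fold change of 2.00 (SE 0.23, unadjusted p = 9.32e-05, adjusted p = 0.218 in edgeR). *Dbp*, a PAR bZIP activator, gave 1.93, 1.60 and 0.845 CPM in Tshr f/f and 7.44, 5.68 and 5.76 CPM in Tshr MKO (log2 fold change 2.09, adjusted p = 0.218). *Nr1d2*, which encodes REV-ERBβ, gave 36.7, 21.5 and 27.5 CPM in Tshr f/f and 67.6, 55.5 and 54.0 CPM in Tshr MKO (1.05, adjusted p = 0.218). The remaining genes at that limit, named after their values were seen, were *Usp2* (1.44), *Tef* (1.24) and *Wee1* (0.77), all higher, and *Nfil3* (−1.70), a repressor at D-boxes, lower. *Nfil3* overlapped between genotypes. The count of higher genes was 4 to 7 over the libraries left out, and that of lower genes was 0 without Tshr f/f replicate 2 or 3 or Tshr MKO replicate 1 or 2, so *Nfil3* was not at the limit in these fits. The summed macrophage markers were higher in the same libraries (above), though of them only *Lyz2* was at an unadjusted p under 0.05. Their part in these values was not tested.

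In livers the same list had a median log2 fold change of 0.04, against −0.01 over all genes tested. *Dbp* in liver gave 19.9, 44.6 and 8.16 CPM under Tshr f/f and 48.5, 42.3 and 55.7 CPM under Tshr MKO. Its Tshr f/f replicate 2 lay among the Tshr MKO livers, as for *Per3* (log2 fold change 1.01, unadjusted p = 0.11). *Nr1d1* in liver gave −0.01 (95% interval −0.49 to 0.47).

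The kinases and F-box proteins that set the stability of PER and CRY proteins gave few genes at the unadjusted limit. Of all genes tested, 17.9% passed that limit in BMDMs and 10.5% in livers, in either direction. In BMDMs 1 of 9 tested was higher, *Csnk1e* (casein kinase 1ε, which phosphorylates PER proteins), at 29.4, 30.4 and 27.0 CPM in Tshr f/f and 38.9, 37.6 and 37.4 CPM in Tshr MKO (log2 fold change 0.39, adjusted p = 0.218). In livers *Gsk3b*, a kinase of several clock proteins, was lower in those labelled Tshr MKO (−0.26, unadjusted p = 0.0346, adjusted p = 0.437 in edgeR). Of the 9 chromatin partners none passed an unadjusted p of 0.05 in BMDMs, and *Hdac3*, the deacetylase recruited by REV-ERBα, was higher in livers labelled Tshr MKO (0.32, unadjusted p = 0.0485). The medians of both lists lay between −0.12 and 0.01 in both tissues.

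The glucocorticoid and the CREB or serum response genes, whose signals reset the clock through *Per1*, were followed for the inputs. In BMDMs 2 of 6 glucocorticoid receptor targets were higher in Tshr MKO, *Zbtb16* (log2 fold change 2.30, unadjusted p = 0.00266) and *Tsc22d3* (1.73, unadjusted p = 0.0174), with a median of 0.12. Of all genes tested in BMDMs, 7.73% were higher and 10.2% lower at an unadjusted p under 0.05. *Tsc22d3* gave 9.67, 14.2 and 2.76 CPM in Tshr f/f, with Tshr f/f replicate 3 the lowest, and 30.2, 34.2 and 24.1 CPM in Tshr MKO. Of 7 CREB or serum response genes 1 was lower in BMDMs, *Junb* (−1.24, unadjusted p = 0.0443), a count that ranged from 0 to 4 over the libraries left out.

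In livers both lists had genes that were lower in those labelled Tshr MKO. These lists were chosen with earlier results of these data known. The shares of all genes beside their counts are therefore no test of a list. Of the 6 glucocorticoid receptor targets 4 were lower and 0 higher at an unadjusted p under 0.05, where 5.18% of all genes were lower and 5.27% higher. Their median log2 fold change was −0.65, against −0.01 over all genes tested. *Dusp1*, a MAP kinase phosphatase, gave 142, 179 and 166 CPM under Tshr f/f and 54.3, 49.3 and 41.9 CPM under Tshr MKO. Its groups were far apart, with a log2 fold change of −1.74 (SE 0.14, adjusted p = 0.0634, the lowest of the 15062 genes in edgeR). *Sgk1* (−1.04), *Klf9* (−0.50) and, named after its value was seen, *Fkbp5* (−0.77) were the others. Without regard to p, 5 of the 6 were lower and 1, *Tsc22d3*, was higher (0.34). Of the 7 CREB or serum response genes 4 were lower and 0 higher at that limit, against the same shares of all genes, with a median of −1.08: *Egr1* (−1.23), *Sik1* (−2.20), *Nr4a1* (−2.23) and, named after its value was seen, *Fos* (−1.08). Without regard to p, 2 of the 7 were higher, *Fosb* (1.21) and *Crem* (0.12), named after their values were seen. *Sik1*, a kinase induced by cAMP, gave 45.4, 34.6 and 84.2 CPM under Tshr f/f and 11.4, 12.7 and 11.5 CPM under Tshr MKO. The 8 genes lower at an unadjusted p under 0.05 did not overlap between the labels, as in 7.74% of all genes in that direction. They were taken for that p, which favours such genes. *Per1* itself overlapped between the labels.

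By the range of TMM log2 CPM over the 6 livers, *Npas2* was the most variable member (2.43). The genes with the nearest profile after centring were *6430571L13Rik*, *Tnfrsf10b* and *Cox6b2* (root-mean-square difference 0.296, 0.305 and 0.325 log2, of 15062 genes). In BMDMs *Npas2* was at 0 counts in Tshr f/f replicate 3 and had at most 35 in a library, so its log range there depends on the value put in place of 0, and no range or nearest genes are given. Of the other 8 members *Per3* had the widest range in BMDMs, 5.42-fold, followed by *Cry1*, 3.75-fold.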

How the data were processed

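Strand-specific RNA libraries of BMDMs and livers were sequenced by the authors, who deposited raw read counts per gene, and the submitters' processing notes name FastQC 0.11.2, STAR, StringTie and the build mm10. Samples were grouped by the tissue and genotype in their labels. Counts were fitted in edgeR 4.0.16 (R 4.3.3; TMM, filterByExpr, robust quasi-likelihood F test, Benjamini-Hochberg over all genes tested), for each tissue alone, and over the 12 libraries for tissue contrasts and the interaction. The SE is the log2 fold change over the square root of F, with 95% t intervals. Exon lengths and gene positions came from GENCODE M21 (55154 of 55335 genes matched). Ratios used a pseudocount of 0.5 counts. The members and lists were chosen with earlier results of these data known. Named genes were the 9 members, up to 3 genes per list and tissue with the lowest unadjusted p under 0.05, and, for the most variable member of a tissue, the 3 genes nearest in centred profile (not given for BMDMs, where a count of 0 set the range). Alternatives were RLE, upper-quartile and library-size scaling, other filters (none, or a mean of 50 counts), DESeq2 1.42.0, one fit of all libraries, the replicate block, the first letter of the liver ID and each library left out. The scripts were tested on simulated data. No replicates were duplicates: their counts differed by more than sampling noise. Results of 2 listed genes are not reported here.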

Additional observations from a re-analysis of the deposited data

How the results depend on the processing

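The number of genes called in BMDMs (0) was 1223 in DESeq2, 150 with all 12 libraries in the fit and 0 to 13 with a library left out (13 without Tshr f/f replicate 2, 2 without Tshr f/f replicate 3). In livers (0) it was 269 in DESeq2, 1 without a filter and 0 to 7 with a library left out (7 without Tshr f/f replicate 2, 2 without Tshr MKO replicate 3). For the interaction (1) it was 774 in DESeq2, 3 with upper-quartile and 2 with library-size scaling, and 0 to 341 with a library left out (341 without BMDM Tshr f/f replicate 2, 62 without Tshr f/f replicate 1). Members called in BMDMs (0) were 1 in DESeq2 and 1 in the joint fit, in both cases *Cry1*, and for the interaction (0) 1 in DESeq2 and 0 to 1 with a library left out, also *Cry1*. Members at an unadjusted p under 0.05 in BMDMs (1) were 2 in DESeq2 and 2 in the joint fit, with 1 to 3 when a library was left out, and in livers (5) 2 to 6, alternatives chosen after the data were seen. The genotype difference of the BMDM *Arntl* to *Per* ratio moved between −0.32 and 0.19 with a library left out. It turned sign without Tshr f/f replicate 1 or Tshr MKO replicate 3, and was −1.09 with *Per3* in place of the sum. *Arntl* in liver against BMDMs turned to −0.045 with library size alone, was called no more in 7 other alternatives, and the cause was not tested. *Npas2* had too few counts for the filter at a mean of 50. The scaling alternatives other than library size moved the genotype medians by less than 0.1, and library size alone moved the BMDM median to 0.17.

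Replicate numbers are shared by the groups. The deviations of same-numbered libraries had correlations of 0.0959, 0.0126 and 0.102 in BMDMs and −0.0562, 0.217 and −0.0209 in livers. Those of differently numbered libraries were −0.191 to 0.153 in BMDMs and −0.291 to 0.281 in livers. Such values cannot show whether same-numbered libraries were paired, and the labels give only the number. With the replicate block 1 gene was called in BMDMs, 0 in livers and 0 for the interaction, 4 members were at an unadjusted p under 0.05 in livers in place of 5, and *Arntl* in liver against BMDMs was not called (adjusted p = 0.0605).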
